A study of Homo sapiens with 6 samples.

Results

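The genes described here encode the 3 families of phase II conjugating enzymes: the UDP-glucuronosyltransferases (UGT), the cytosolic and microsomal glutathione S-transferases (GST, MGST) and the cytosolic sulfotransferases (SULT). They were taken from the deposited expression table by gene name, without reference to any measured value. The names select 63 of the 50868 genes in the table: 21 UGT, 26 GST, 3 MGST and 13 SULT genes, 8 of them pseudogenes by name. The cells were Huh7, a human hepatoma line labelled wild type. They received P-T3H2, a peptide said to enter cells (3 libraries), or its control P-T3H2-2A (3 libraries), both at 20 µM for 5 days. Per the title of the study, P-T3H2 acts on HNF4α, a transcription factor of hepatocytes, by stabilising its protein. No untreated cells were analysed here, and the labels do not say whether libraries of a group came from separate cultures, so p-values measure the spread between libraries, which may be technical.

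Phase II enzymes attach a polar group to a drug, hormone, bile acid or bilirubin, which makes it easier to excrete. UGTs sit in the endoplasmic reticulum and transfer glucuronic acid from UDP-glucuronate. Cytosolic SULTs transfer sulfate from the donor PAPS, and GSTs join the tripeptide glutathione to electrophiles. In adult hepatocytes these families are abundant, and many of their genes are known targets of HNF4α and of other nuclear receptors.

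Total counts were 17434442 to 21374732 per library. By its expression, P-T3H2-2A replicate 3 (called so by its label throughout) resembled the P-T3H2 libraries more than replicates 1 and 2 of its own group. It was nearer to the P-T3H2 mean for 80% of 14333 genes of at least 1 CPM (counts scaled to a common library size). Among the conjugation genes it was nearer for 28 of 29 (96.6%), with SULT1A2 the exception. Fold changes of the conjugation genes are therefore given with all 6 libraries (as labelled) and again with 5, leaving that library out. It was left out for where its expression lay, so the p-values with 5 libraries are not an independent test of the peptide. The markers of hepatocytes, 7 of 7 detected, summed to 29690 to 31310 CPM in P-T3H2 libraries and 29880 to 31850 CPM in P-T3H2-2A libraries. Of the 7, 2 were higher and 2 lower with 5 libraries, against 22.6% higher and 22.8% lower of all genes. With 6 libraries edgeR called 0 (1 under an unadjusted p of 0.05, against 18% of all genes). DESeq2 with 6 libraries called 1 lower, against 0.571% of all genes. The blood list summed to 577 to 684 CPM in P-T3H2 libraries and 130 to 653 CPM in P-T3H2-2A libraries. Almost all of that was LYZ, the lysozyme gene, which rose with 5 libraries, whereas CD68, a macrophage marker near 1 CPM, fell and PTPRC was not called. The biliary list summed to 439 to 473 CPM in P-T3H2 libraries and 272 to 470 CPM in P-T3H2-2A libraries. With 5 libraries 2 of its 4 tested genes were higher, against 22.6% of all genes. The fibroblast list (23.2 to 36.7 CPM in P-T3H2 and 24.9 to 35.4 CPM in P-T3H2-2A libraries, with ACTA2 at 0) and the endothelial list (4.98 to 5.16 CPM in P-T3H2 and 4.14 to 11.9 CPM in P-T3H2-2A libraries, with KDR at 0) were low in both groups. The part of these genes in the results was not tested. In a bulk sample, fewer cells of a type and less RNA per cell cannot be told apart.

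As labelled, 0 of the 34 conjugation genes that could be tested passed an adjusted p of 0.05 in edgeR, against 0.00627% of all 15946 genes tested. Their adjusted p ran between 0.275 and 0.952, and 4 (GSTA1, GSTT2B, GSTM4 and SULT2A1) were under an unadjusted p of 0.05, against 18% of all genes. DESeq2 called 1 of them, GSTT2B, higher in P-T3H2 libraries, against 0.859% of all genes (0.288% called higher). With 5 libraries edgeR called 19 of 35 (54.3%), against 45.4% of all 16281 genes. Of these, 9 were higher (22.6% of all genes) and 10 lower (22.8% of all genes). DESeq2 with 5 libraries called 7 higher and 10 lower, against 42.5% of all genes, and all 17 were among the edgeR calls, with GSTT2 and UGT2B28 lost. The genes that rose were UGT2B4, UGT2B11, UGT2B28, SULT1B1, SULT1C4, SULT2A1, GSTM3, GSTT2 and GSTT2B. Those that fell were UGT2B10, SULT1C2, SULT1E1, GSTA1, GSTA2, GSTM1, GSTM4, GSTP1, GSTZ1 and MGST1. With 5 libraries UGT2B28, GSTT2 and GSTT2B had enough counts for the test only through the P-T3H2 libraries, as had UGT2A2, which was not called. For such genes the count filter favours a higher call. The median log2 fold change of the tested genes, P-T3H2 over P-T3H2-2A, was -0.02 as labelled and -0.03 with 5 libraries, against -0.004 and 0.003 over all genes.

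The other 29 genes had too few counts for the test with 6 libraries. Of these, 13 had a count of 0 in every library, among them GSTA3, GSTA5, GSTT4, SULT1A4, SULT1C3, SULT4A1, SULT6B1 and UGT3A2. The remaining 16 had at most 58 counts each over all libraries. They included UGT2B15 and UGT2B17, which glucuronidate androgens, and SULT1A3, which sulfates dopamine.

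Summed over all 63 genes, the level ran between 1593 and 1641 CPM in P-T3H2 libraries and between 1589 and 1636 CPM in P-T3H2-2A libraries. The make-up of that total differed between libraries, with no test made. The UGT genes summed to 196, 157 and 166 CPM in P-T3H2 replicates 1, 2 and 3, against 75.5, 89.8 and 192 CPM for replicates 1, 2 and 3 of P-T3H2-2A. The SULT genes summed to 222, 204 and 211 CPM in P-T3H2 libraries, against 161, 159 and 192 CPM in P-T3H2-2A libraries. The GST genes summed to 920, 957 and 910 CPM in P-T3H2 libraries, against 1073, 1038 and 915 CPM in P-T3H2-2A libraries. Thus the UGT and SULT sums were lower, and the GST sum higher, in P-T3H2-2A replicates 1 and 2, and replicate 3 lay inside the P-T3H2 range for the UGT and GST sums. Most of the UGT sum came from UGT2B genes, and the largest part of the SULT and GST sums from SULT2A1 and GSTP1. The GSTM genes ran against the GST sum, at 79.6, 82.0 and 81.0 CPM in P-T3H2 libraries. In P-T3H2-2A libraries they had 71.8, 75.6 and 83.5 CPM. On the per-length FPKM scale GSTP1 had the highest level, at 105 ± 5.27 in P-T3H2 and 120 ± 14.9 in P-T3H2-2A libraries (SD, n = 3 each). GSTO1 averaged 67.8 ± 1.61 FPKM in P-T3H2 and 69.7 ± 6.63 FPKM in P-T3H2-2A libraries. SULT2A1 averaged 72.2 ± 3.18 FPKM in P-T3H2 and 53.3 ± 7.78 FPKM in P-T3H2-2A libraries, so that it stood above GSTO1 in P-T3H2 and below it in P-T3H2-2A libraries.

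MGST2 and UGT2B4 came next. MGST2 averaged 26.1 ± 0.593 FPKM in P-T3H2 and 25.6 ± 0.474 FPKM in P-T3H2-2A libraries. UGT2B4, the most abundant UGT, averaged 24.1 ± 3.31 FPKM in P-T3H2 and 17.5 ± 10.2 FPKM in P-T3H2-2A libraries (SD, n = 3 each). These 2 levels differed by less than the spread of UGT2B4.

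**Figure D1:**
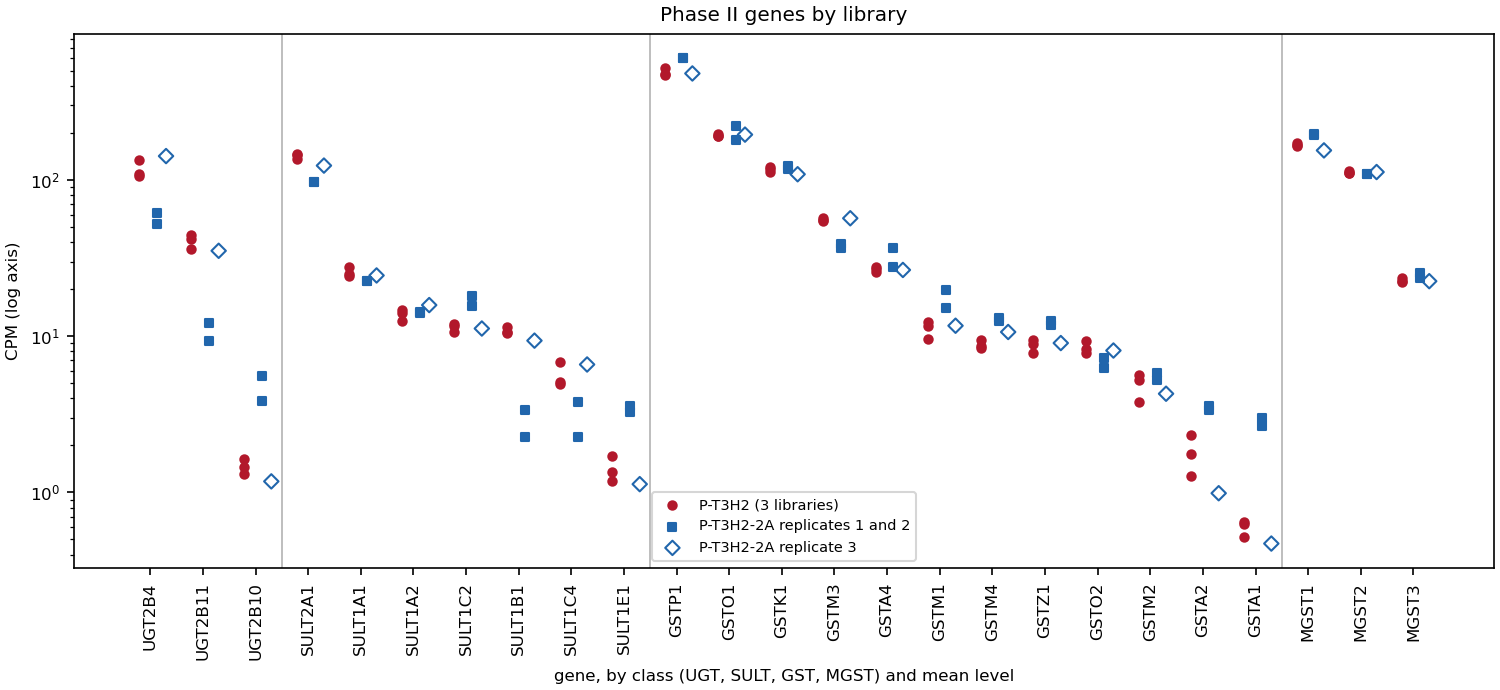
Level of the conjugation genes of at least 1 CPM in each library, in CPM on a log axis, with P-T3H2 libraries left of P-T3H2-2A libraries. UGT2B11, SULT1B1 and UGT2B4 are low in P-T3H2-2A replicates 1 and 2 only, and replicate 3 of that group sits with the P-T3H2 libraries.

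The UGT1A locus on chromosome 2 makes a set of enzymes that differ in their first exon and share the rest. UGT1A1, the enzyme that conjugates bilirubin, and UGT1A6, which acts on small planar phenols, belong to it. In the annotation (GENCODE 29, GRCh38) each of the 9 main transcripts has 5 exons, and exon 2, at positions 233767034 to 233767165 of the plus strand, is the same in each. The sequences below are shown because a read from the shared part cannot be assigned to a gene. They give the last 30 bases of each first exon in lower case and the first 30 bases of the shared second exon in capitals.
UGT1A1: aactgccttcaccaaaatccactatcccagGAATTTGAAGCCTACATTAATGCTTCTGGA
UGT1A3: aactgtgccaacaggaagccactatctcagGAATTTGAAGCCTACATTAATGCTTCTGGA
UGT1A4: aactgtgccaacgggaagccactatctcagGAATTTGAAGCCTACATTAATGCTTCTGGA
UGT1A5: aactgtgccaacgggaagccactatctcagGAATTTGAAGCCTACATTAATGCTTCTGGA
UGT1A6: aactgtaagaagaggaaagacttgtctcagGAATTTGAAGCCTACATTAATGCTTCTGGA
UGT1A7: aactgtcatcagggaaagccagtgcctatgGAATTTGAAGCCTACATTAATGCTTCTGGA
UGT1A8: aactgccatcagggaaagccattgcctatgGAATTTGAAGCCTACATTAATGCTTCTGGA
UGT1A9: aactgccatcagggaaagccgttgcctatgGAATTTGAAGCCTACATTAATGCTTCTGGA
UGT1A10: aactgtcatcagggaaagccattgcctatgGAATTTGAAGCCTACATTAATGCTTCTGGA
The lower-case stretch of UGT1A4 is identical to that of UGT1A5, and no other pair of stretches is identical. The 9 genes share 1478 exonic bases, which is 33.1% of the exonic length of UGT1A1 and 63.0% of that of UGT1A5.

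Counts of the UGT1A locus were low and moved between rows of the table from library to library. The summed count was 91, 66 and 94 in P-T3H2 replicates 1, 2 and 3, and 44, 70 and 87 in P-T3H2-2A replicates 1, 2 and 3. The largest row in P-T3H2 libraries was UGT1A10 with 54 counts (59.3% of the sum) in replicate 1, UGT1A9 with 41 (62.1%) in replicate 2 and UGT1A6 with 83 (88.3%) in replicate 3. In P-T3H2-2A libraries it was UGT1A6 with 22 counts (50%) in replicate 1, UGT1A1 with 40 (57.1%) in replicate 2 and UGT1A8 with 37 (42.5%) in replicate 3. UGT1A9 thus had 41 counts in P-T3H2 replicate 2 and 0 in replicates 1 and 3 of the same group. UGT1A7 had 29 counts in P-T3H2-2A replicate 3 and 0 in every other library. A level of a single UGT1A gene is therefore uncertain in these data, and the locus was also summed. The locus differed by 0.23 on the log2 scale (SE 0.236, adjusted p 0.555) as labelled and 0.39 (SE 0.222, adjusted p 0.196) with 5 libraries, so that no difference was detectable at this depth. Of the 9 rows, UGT1A1 and UGT1A6 had enough counts for a test of their own, and neither was called with 6 or 5 libraries. For UGT1A1 the log2 fold change was -0.39 (SE 0.838) as labelled and -0.89 (SE 0.674) with 5 libraries, and for UGT1A6 it was 0.54 (SE 1.40) as labelled and 0.0092 (SE 1.70) with 5 libraries.

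**Figure D2:**
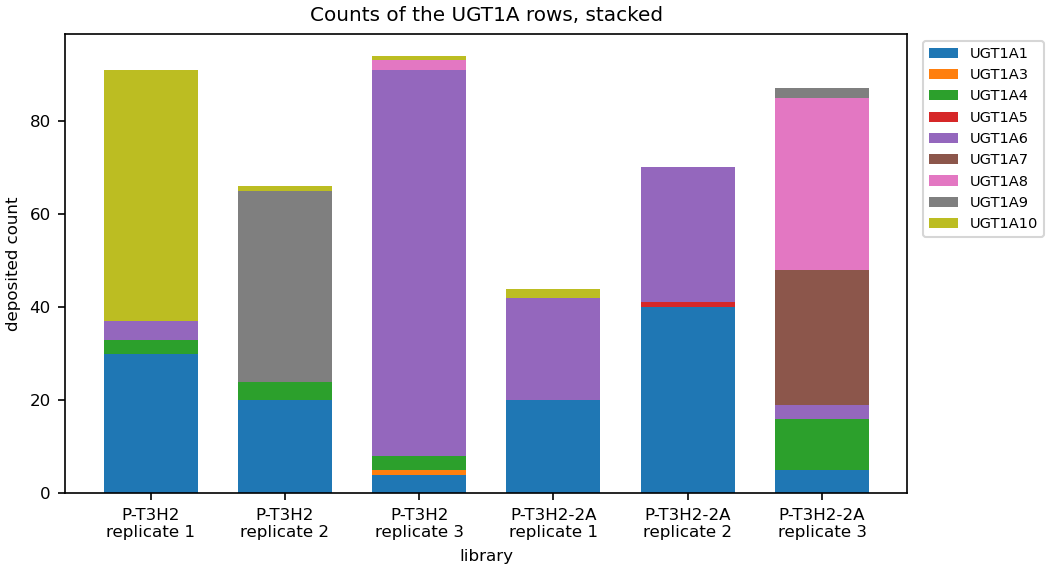
Counts of the 9 UGT1A rows in each library, stacked so that the height of a bar is the summed count of the locus, with P-T3H2 libraries left of P-T3H2-2A libraries. The sums lie between 44 and 94, and the row that holds most of the counts changes between libraries, being UGT1A10, UGT1A9 or UGT1A6 within the P-T3H2 group.

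The UGT2B genes, which glucuronidate bile acids, steroids and many drugs, lie together on chromosome 4. Of 7, 5 had enough counts: UGT2B4, UGT2B11 and UGT2B28 rose with 5 libraries, UGT2B10 fell, and UGT2B7 was not called. UGT2B11, a member of this group for which few substrates are known, is at chr4:69004618-69214731 on the minus strand in the deposited table. Its level was 44.7, 35.9 and 41.8 CPM in P-T3H2 libraries, against 9.36, 12.2 and 35.2 CPM in P-T3H2-2A libraries. Every P-T3H2 library was above every P-T3H2-2A library, although replicate 3 missed the lowest of them by little. The log2 fold change was 1.11 (SE 0.483, adjusted p 0.275) as labelled and 1.92 (SE 0.147, adjusted p 0.000128), or 3.78-fold, with 5 libraries.

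UGT2B4 (chr4:69480165-69526014, minus strand), an enzyme of bile acid glucuronidation, had 135, 107 and 110 CPM in P-T3H2 libraries, against 52.5, 61.3 and 142 CPM in P-T3H2-2A libraries. P-T3H2-2A replicate 3 was the highest library of all, so the groups overlapped. The log2 fold change was 0.46 (SE 0.377, adjusted p 0.457) as labelled and 1.04 (SE 0.129, adjusted p 0.00147) with 5 libraries. UGT2B10 (chr4:68815993-68831196, plus strand), which joins glucuronic acid to the nitrogen of nicotine and other amines, ran the other way. It had 1.63, 1.45 and 1.32 CPM in P-T3H2 libraries, against 3.87, 5.59 and 1.18 CPM in P-T3H2-2A libraries. The fitted log2 value was -1.27 (SE 0.531, adjusted p 0.275) as labelled and -1.69 (SE 0.222, adjusted p 0.000956) with 5 libraries. UGT2B7, which conjugates morphine, had 4.93, 3.86 and 4.05 CPM in P-T3H2 libraries, against 2.89, 3.36 and 3.77 CPM in P-T3H2-2A libraries. Its groups did not overlap, and its log2 fold change of 0.45 (SE 0.183, adjusted p 0.0854) with 5 libraries did not pass, nor did the labelled value of 0.36 (SE 0.183, adjusted p 0.294). UGT2B28 had 0.652, 0.482 and 0.471 CPM in P-T3H2 libraries, against 0.173, 0.0989 and 0.706 CPM in P-T3H2-2A libraries. As labelled its log2 fold change was 0.67 (SE 0.658, adjusted p 0.533), and its call with 5 libraries (log2 fold change 1.95, SE 0.533, adjusted p 0.0215) was not made by DESeq2 (adjusted p 0.0656).

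Near-identical sequence limits how far these genes can be separated. The coding sequences of UGT2B11 and UGT2B28 share 39.8% of their 31-base words, and those of UGT2B10 and UGT2B11 share 28.3%. UGT2B11 as deposited begins at 69004618, against 69199951 in GENCODE 29, and overlaps UGT2B27P and AC107401.1 on the same strand. Its counts may therefore include reads of those genes. UGT2B11 as deposited also spans UGT2B7 on the opposite strand, and the strand setting of the counting is not given in the sources used here. UGT2B10 and UGT2B11 moved in opposite directions with 5 libraries although their promoters are close copies. The windows below, of 250 bases before to 50 after the start (RefSeq, GRCh38.p14), are shown for that reason. UGT2B10 is chr4:68815744-68816043 on the plus strand and UGT2B11 is chr4:69214699-69214998 on the minus strand. Capitals mark a match to TGACNNNGC, a short form of the antioxidant response element bound by NRF2, on the strand opposite to the one printed.
UGT2B10: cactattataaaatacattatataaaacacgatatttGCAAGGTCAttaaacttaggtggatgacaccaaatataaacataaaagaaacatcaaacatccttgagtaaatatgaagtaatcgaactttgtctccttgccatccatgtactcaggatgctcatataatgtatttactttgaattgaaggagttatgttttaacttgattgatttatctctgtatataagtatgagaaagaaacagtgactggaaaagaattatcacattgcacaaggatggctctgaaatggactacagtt
UGT2B11: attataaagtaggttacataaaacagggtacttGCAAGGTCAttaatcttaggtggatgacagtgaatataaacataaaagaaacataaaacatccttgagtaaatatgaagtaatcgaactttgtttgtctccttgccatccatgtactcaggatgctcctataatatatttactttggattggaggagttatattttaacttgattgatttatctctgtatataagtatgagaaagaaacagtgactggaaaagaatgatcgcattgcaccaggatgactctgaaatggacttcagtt
The windows are identical in 274 of 304 columns of their alignment (90.1%), against 61.5% for UGT2B10 with UGT2B7 and 67.8% for UGT2B10 with UGT2B15. The match starts 213 bases before the start of UGT2B10 and 217 bases before that of UGT2B11.

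Promoter windows were found for 45 of the 63 genes, 50 windows in all. On either strand TGACNNNGC occurs in 11 of the 50, against 13.3% of all 35116 windows, in 1 window each of GSTA4, GSTM1, GSTM5, GSTO1, GSTP1, MGST1, SULT1C2, UGT1A5, UGT1A6, UGT2B10 and UGT2B11. With 5 libraries GSTM1, GSTP1, MGST1, SULT1C2 and UGT2B10 of these fell and UGT2B11 rose. GSTA4, GSTO1 and UGT1A6 were not called, and GSTM5 and UGT1A5 were not tested. Of all genes tested, 22.8% were lower and 22.6% higher with 5 libraries. A link of the motif to these changes was not tested. The HNF4 form CAAAGTCCA is in 0 of the 50, against 0.384% of all windows. A match is a run of letters and not a bound site.

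UGT2A genes were near 1 CPM. UGT2A1, an enzyme best known from the nose, had 1.77, 0.772 and 1.51 CPM in P-T3H2 libraries, against 0.751, 0.940 and 1.70 CPM in P-T3H2-2A libraries. UGT2A3 had 1.26, 2.03 and 1.46 CPM in P-T3H2 libraries, against 2.25, 1.83 and 1.37 CPM in P-T3H2-2A libraries. The groups overlapped for both, and neither was called. UGT2A1 had a log2 fold change of 0.24 (SE 0.429) as labelled and 0.66 (SE 0.403) with 5 libraries, and that of UGT2A3 was -0.19 (SE 0.286) as labelled and -0.37 (SE 0.269) with 5 libraries. UGT2A2 shares 83.0% of its 31-base words with UGT2A1 and was tested with 5 libraries only, without a call (adjusted p 0.0779). It had enough counts for that test only through the P-T3H2 libraries.

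The chromosome 4 cluster continues past the UGT genes to a pair of sulfotransferases, and its members moved both ways. In order along the chromosome, by their starts in GENCODE 29, they are UGT2B17, UGT2B15, UGT2B10, UGT2A3, UGT2B7, UGT2B11, UGT2B28, UGT2B4, UGT2A1, UGT2A2, SULT1B1 and SULT1E1. With 5 libraries UGT2B10 and SULT1E1, near the 2 ends, fell, and UGT2B11, UGT2B28, UGT2B4 and SULT1B1 between them rose. Thus 6 of the 10 tested were called, against 45.4% of all genes, while UGT2A3, UGT2B7, UGT2A1 and UGT2A2 between them were not. Of the 10, UGT2B28 and UGT2A2 had enough counts only through the P-T3H2 libraries, and DESeq2 did not call UGT2B28. SULT1B1 (chr4:69721162-69787961, minus strand) sulfates thyroid hormones and small phenols. It had 11.5, 10.4 and 10.7 CPM in P-T3H2 libraries, against 3.35, 2.28 and 9.37 CPM in P-T3H2-2A libraries, with no overlap. In log2 terms the difference was 1.11 (SE 0.492, adjusted p 0.276) as labelled and 1.96 (SE 0.183, adjusted p 0.000232), or 3.88-fold, with 5 libraries. SULT1E1 (chr4:69810780-69860152, minus strand), the estrogen sulfotransferase, had 1.72, 1.35 and 1.18 CPM in P-T3H2 libraries, against 3.58, 3.26 and 1.13 CPM in P-T3H2-2A libraries. P-T3H2-2A replicate 3 was its lowest library. The log2 fold change was -0.90 (SE 0.444, adjusted p 0.286) as labelled and -1.27 (SE 0.218, adjusted p 0.00311) with 5 libraries. SULT1E1 as deposited begins at 69810780, against 69841212 in GENCODE 29, and overlaps SULT1D1P on the same strand. Its counts may therefore include reads of SULT1D1P.

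**Figure D3:**
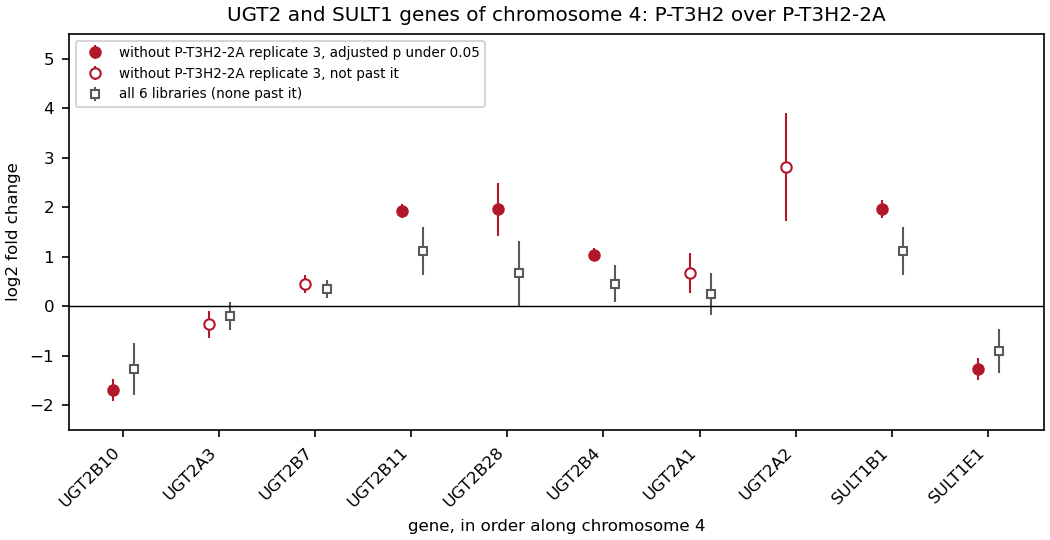
Log2 fold change, P-T3H2 over P-T3H2-2A, of the UGT and SULT genes of chromosome 4 in their order along it, with bars of 1 standard error, with 5 libraries and with all 6. UGT2B10 and SULT1E1 lie below 0, and UGT2B11, UGT2B28, UGT2B4 and SULT1B1 lie above 0. With 5 libraries UGT2B28 and UGT2A2 had enough counts only through the P-T3H2 libraries.

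Among the remaining sulfotransferases, SULT2A1 was the most abundant. SULT2A1 (chr19:47870466-47886397, minus strand) sulfates DHEA and bile acids in liver and adrenal gland. It had 148, 137 and 145 CPM in P-T3H2 libraries, against 97.7, 96.7 and 124 CPM in P-T3H2-2A libraries. Here the groups did not overlap, and P-T3H2-2A replicate 3 lay between its own group and P-T3H2. The log2 fold change was 0.43 (SE 0.118, adjusted p 0.275) as labelled and 0.56 (SE 0.0546, adjusted p 0.000280), or 1.47-fold, with 5 libraries. SULT1C2 and SULT1C4, known from fetal tissues, moved in opposite directions with 5 libraries. SULT1C2 (chr2:108288639-108309915, plus strand) had 12.1, 11.6 and 10.6 CPM in P-T3H2 libraries, against 15.7, 18.1 and 11.2 CPM in P-T3H2-2A libraries. The fit gave a log2 value of -0.39 (SE 0.190, adjusted p 0.282) as labelled and -0.57 (SE 0.109, adjusted p 0.00516) with 5 libraries. SULT1C4 (chr2:108377911-108388057, plus strand) had 6.84, 4.97 and 5.13 CPM in P-T3H2 libraries, against 3.81, 2.28 and 6.59 CPM in P-T3H2-2A libraries. With 5 libraries its log2 fold change was 0.90 (SE 0.263, adjusted p 0.0282), against 0.41 (SE 0.380, adjusted p 0.503) as labelled.

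Neither phenol sulfotransferase was called. SULT1A1, which sulfates paracetamol and other phenols, had 27.9, 24.4 and 24.9 CPM in P-T3H2 libraries, against 22.5, 22.6 and 24.5 CPM in P-T3H2-2A libraries (log2 fold change 0.15, SE 0.101, adjusted p 0.374 as labelled and 0.19, SE 0.0883, adjusted p 0.123 with 5 libraries). SULT1A2 had 14.1, 14.8 and 12.6 CPM in P-T3H2 libraries, against 14.0, 14.2 and 15.8 CPM in P-T3H2-2A libraries (log2 fold change -0.09, SE 0.116, adjusted p 0.632 as labelled and -0.03, SE 0.105, adjusted p 0.813 with 5 libraries). For both genes the groups overlapped. Their coding sequences share 44.9% of 31-base words. The coding sequences of SULT1A3 and SULT1A4 share 100% of theirs, and the pair had 4 counts in P-T3H2 replicate 3 and 0 elsewhere. As deposited, SULT1A3 overlaps SLX1A-SULT1A3 and SULT1A4 overlaps SLX1B-SULT1A4 on the same strand. Low counts of the pair may therefore reflect how reads were assigned, which was not tested.

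Of the 12 alpha-class glutathione S-transferase rows, 3 could be tested, and GSTA1 and GSTA2 fell with 5 libraries. These enzymes are the main cytosolic GSTs of adult hepatocytes and were scarce here. GSTA1 (chr6:52791664-52803910, minus strand) had 0.652, 0.627 and 0.518 CPM in P-T3H2 libraries, against 3.00, 2.67 and 0.471 CPM in P-T3H2-2A libraries. The difference, on the log2 scale, was -1.75 (SE 0.654, adjusted p 0.275) as labelled and -2.23 (SE 0.231, adjusted p 0.000356), or 4.70-fold lower, with 5 libraries. GSTA2 (chr6:52750089-52763569, minus strand) had 1.77, 2.32 and 1.27 CPM in P-T3H2 libraries, against 3.58, 3.36 and 0.989 CPM in P-T3H2-2A libraries. That is -0.56 on the log2 scale (SE 0.496, adjusted p 0.490) as labelled and -0.96 (SE 0.258, adjusted p 0.0205) with 5 libraries. For both, P-T3H2-2A replicate 3 was the lowest library. Since the coding sequences share 46.2% of 31-base words, the pair was also summed, and gave -0.97 on the log2 scale (SE 0.542, adjusted p 0.315) as labelled and -1.40 (SE 0.216, adjusted p 0.00192) with 5 libraries. GSTA4, which detoxifies the lipid aldehyde 4-hydroxynonenal, had 27.8, 26.9 and 25.8 CPM in P-T3H2 libraries, against 27.9, 36.5 and 26.6 CPM in P-T3H2-2A libraries. It was not called (log2 fold change -0.17, SE 0.141, adjusted p 0.452 as labelled and -0.26, SE 0.118, adjusted p 0.112 with 5 libraries), and P-T3H2-2A replicate 2 alone stood above the rest.

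GSTP1 (chr11:67583595-67586660, plus strand), the pi-class enzyme that is scarce in adult hepatocytes and abundant in many tumours, was the most abundant conjugation gene. It had 479, 519 and 470 CPM in P-T3H2 libraries, against 603, 603 and 481 CPM in P-T3H2-2A libraries. Replicate 3 of P-T3H2-2A lay inside the P-T3H2 range. The log2 fold change was -0.20 (SE 0.115, adjusted p 0.323) as labelled and -0.30 (SE 0.0550, adjusted p 0.00401) with 5 libraries. GSTZ1 (chr14:77320884-77331597, plus strand), the maleylacetoacetate isomerase of tyrosine breakdown, had 8.94, 9.50 and 7.77 CPM in P-T3H2 libraries, against 12.6, 11.8 and 9.04 CPM in P-T3H2-2A libraries. For it the log2 fold change was -0.35 (SE 0.167, adjusted p 0.280) as labelled and -0.48 (SE 0.124, adjusted p 0.0170) with 5 libraries. GSTZ1 overlaps POMT2 on the other strand.

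The mu class moved both ways. GSTM3 (chr1:109733932-109741038, minus strand), the most abundant of its class, had 54.9, 55.7 and 56.8 CPM in P-T3H2 libraries, against 38.8, 36.7 and 56.9 CPM in P-T3H2-2A libraries. Its log2 fold change was 0.34 (SE 0.174, adjusted p 0.295) as labelled and 0.56 (SE 0.0631, adjusted p 0.000494) with 5 libraries. P-T3H2-2A replicate 3 was again at the P-T3H2 level. GSTM4 (chr1:109656081-109674836, plus strand) had 8.38, 9.40 and 8.71 CPM in P-T3H2 libraries, against 12.6, 13.1 and 10.6 CPM in P-T3H2-2A libraries. It was the only tested conjugation gene that lay lower in every P-T3H2 library, against 11.6% of all genes, and its log2 value was -0.46 (SE 0.131, adjusted p 0.275) as labelled and -0.54 (SE 0.106, adjusted p 0.00542) with 5 libraries. GSTM1 (chr1:109687814-109709039, plus strand), a gene deleted in many people, had 12.3, 11.6 and 9.60 CPM in P-T3H2 libraries, against 15.1, 19.8 and 11.7 CPM in P-T3H2-2A libraries. With 5 libraries its log2 fold change was -0.65 (SE 0.156, adjusted p 0.0128), against -0.48 (SE 0.215, adjusted p 0.278) as labelled. GSTM2 had 3.77, 5.21 and 5.65 CPM in P-T3H2 libraries, against 5.26, 5.84 and 4.28 CPM in P-T3H2-2A libraries, and was not called (log2 fold change -0.07, SE 0.212 as labelled and -0.19, SE 0.198 with 5 libraries). GSTM1 and GSTM4 both overlap GSTM2 on the same strand as deposited, and their coding sequences share 37.0% of 31-base words, so counts may be split between them.

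The theta-class genes GSTT2 and GSTT2B lie close together on chromosome 22 as near-copies, sharing 91.6% of 31-base words of GSTT2. They were picked out after their values were seen. GSTT2B (chr22:23957414-23961186, minus strand) had 1.68, 1.3 and 1.41 CPM in P-T3H2 libraries, against 0.404, 0.396 and 0.612 CPM in P-T3H2-2A libraries. The groups did not overlap, and unlike most of these genes it had P-T3H2-2A replicate 3 with its own group. The log2 fold change was 1.61 (SE 0.278, adjusted p 0.275 in edgeR and 0.0492 in DESeq2) as labelled and 1.86 (SE 0.307, adjusted p 0.00266) with 5 libraries. GSTT2 (chr22:23980058-23983915, plus strand) had 1.3, 0.820 and 0.894 CPM in P-T3H2 libraries, against 0.347, 0.544 and 1.22 CPM in P-T3H2-2A libraries. Here P-T3H2-2A replicate 3 lay inside the P-T3H2 range. As labelled its log2 fold change was 0.49 (SE 0.477, adjusted p 0.531), and the call with 5 libraries (log2 fold change 1.15, SE 0.392, adjusted p 0.0491) was not made by DESeq2 (adjusted p 0.115). Summed, the pair had 2.98, 2.12 and 2.31 CPM in P-T3H2 libraries, against 0.751, 0.940 and 1.84 CPM in P-T3H2-2A libraries. On the log2 scale the sum differed by 1.05 (SE 0.361, adjusted p 0.275) as labelled and 1.53 (SE 0.268, adjusted p 0.00341) with 5 libraries.

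No gene of the omega and kappa classes was called. GSTO1, a thioltransferase and dehydroascorbate reductase, had 197, 190 and 190 CPM in P-T3H2 libraries, against 220, 181 and 195 CPM in P-T3H2-2A libraries (log2 fold change -0.05, SE 0.0953, adjusted p 0.775 as labelled and -0.06, SE 0.0841, adjusted p 0.597 with 5 libraries). GSTK1, found in mitochondria and peroxisomes, had 113, 117 and 122 CPM in P-T3H2 libraries, against 124, 117 and 109 CPM in P-T3H2-2A libraries (log2 fold change 0.009, SE 0.0839, adjusted p 0.952 as labelled and -0.04, SE 0.0558, adjusted p 0.599 with 5 libraries). GSTO2 had 8.24, 7.76 and 9.37 CPM in P-T3H2 libraries, against 7.22, 6.28 and 8.10 CPM in P-T3H2-2A libraries (log2 fold change 0.23, SE 0.153, adjusted p 0.366 as labelled and 0.32, SE 0.139, adjusted p 0.0979 with 5 libraries). The groups overlapped for each of the 3 genes.

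The microsomal enzymes are membrane proteins unrelated in sequence to the cytosolic GSTs. MGST1 (chr12:16347142-16609259, plus strand), which guards membranes of the endoplasmic reticulum and mitochondria against lipid peroxides, had 166, 168 and 173 CPM in P-T3H2 libraries, against 193, 198 and 155 CPM in P-T3H2-2A libraries. Replicate 3 of P-T3H2-2A was the lowest library, and replicates 1 and 2 the highest. Its log2 fold change was -0.11 (SE 0.112, adjusted p 0.564) as labelled and -0.21 (SE 0.0461, adjusted p 0.00869) with 5 libraries. MGST2, which can form leukotriene C4, had 115, 112 and 111 CPM in P-T3H2 libraries, against 109, 109 and 112 CPM in P-T3H2-2A libraries. MGST3 had 22.4, 23.5 and 22.5 CPM in P-T3H2 libraries, against 23.7, 25.3 and 22.5 CPM in P-T3H2-2A libraries. Neither was called. MGST2 had a log2 fold change of 0.02 (SE 0.0712) as labelled and 0.04 (SE 0.0490) with 5 libraries, and that of MGST3 was -0.06 (SE 0.0935) as labelled and -0.11 (SE 0.0773) with 5 libraries.

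**Figure D4:**
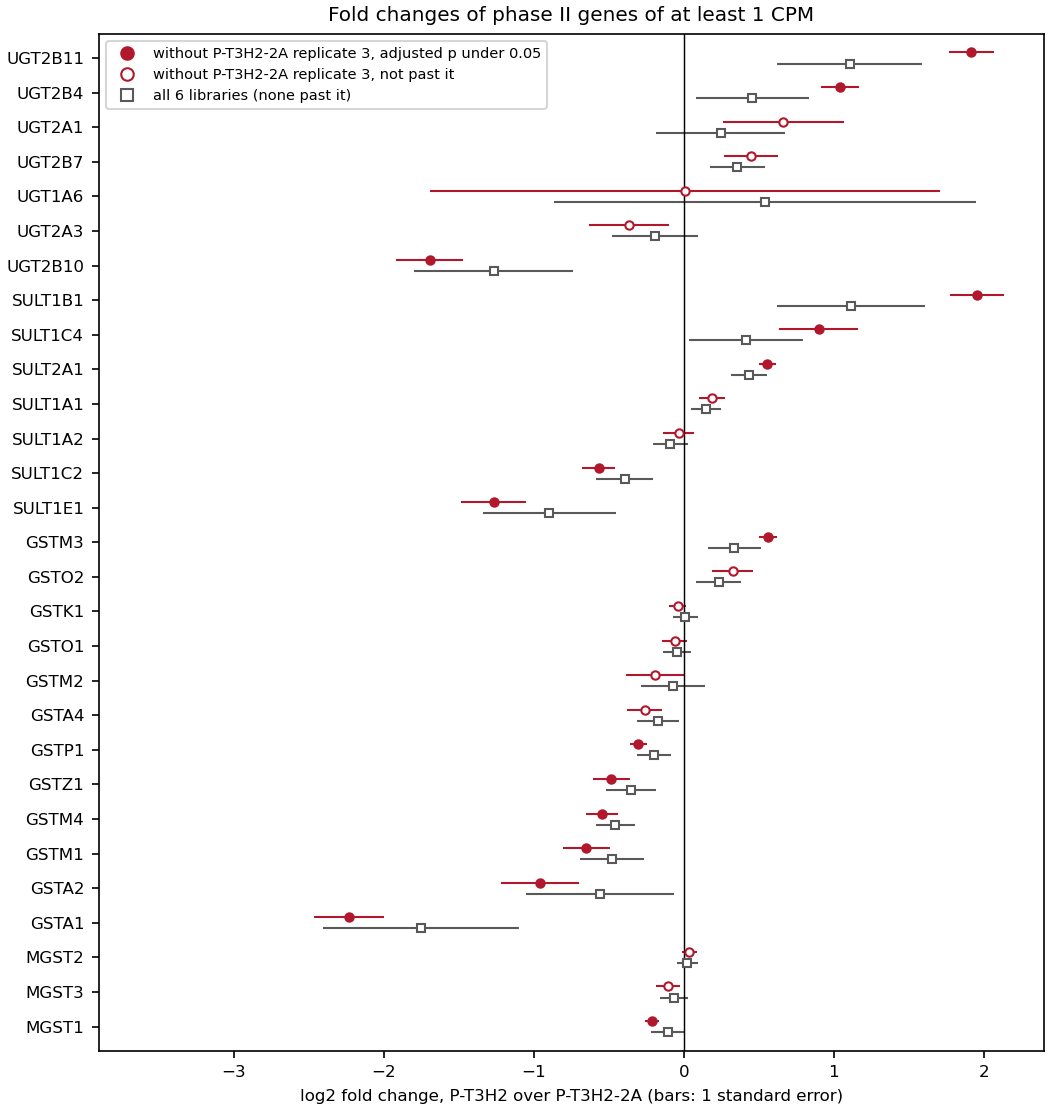
Log2 fold change, P-T3H2 over P-T3H2-2A, of the conjugation genes of at least 1 CPM, with bars of 1 standard error, with 5 libraries (circles, filled where the adjusted p is under 0.05) and with all 6 (squares). Nearly every circle lies farther from 0 than its square, and the UGT2B, SULT, GST and MGST families each hold genes without a call.

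By family, 5 libraries gave 3 higher and 1 lower among 11 tested UGT genes, 3 higher and 2 lower among 7 SULT genes, 3 higher and 6 lower among 14 GST genes, and 0 higher and 1 lower among 3 MGST genes. Of all genes, 45.4% were called with 5 libraries, 22.6% higher and 22.8% lower. Of the conjugation genes called higher, UGT2B28, GSTT2 and GSTT2B had enough counts only through the P-T3H2 libraries. So had UGT2A2, which was tested but not called. The count filter favours higher values for such genes, and they are part of the UGT and GST medians with 5 libraries. The median log2 fold change was 0.45 for UGT, 0.19 for SULT, -0.23 for GST and -0.11 for MGST genes, against 0.003 for all genes. As labelled the median was 0.30 for UGT, 0.15 for SULT, -0.12 for GST and -0.06 for MGST genes, against -0.004 for all genes. Without overlap between the labelled groups were 17.6% of the tested genes (UGT2B7, UGT2B11, SULT1B1, SULT2A1, GSTT2B and GSTM4), against 23.4% of all genes. When P-T3H2-2A replicate 3 was the only control, 0 of 41 conjugation genes were called by edgeR, against 0.368% of all genes (0.202% higher and 0.166% lower). With 1 library in that arm the spread came from the P-T3H2 libraries alone, and the lone library is assumed to vary like them. UGT1A4, UGT1A7, UGT1A8 and UGT2B15 had their highest count in that library and were not tested with 6 or 5 libraries. They had enough counts for this fit only through that library, so their values in it are not read as a result.

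Genes of PAPS supply, of the breakdown of its product PAP, and of sulfate transport and release showed 7 higher and 0 lower among 11 tested with 5 libraries, against 22.6% higher and 22.8% lower of all genes. Their median log2 fold change was 0.45, against 0.003 over all genes. As labelled 0 were called in edgeR and DESeq2 and 2 were under an unadjusted p of 0.05, with a median of 0.25. PAPSS1, which makes PAPS from ATP and sulfate, had 152, 130 and 158 CPM in P-T3H2 libraries, against 70.8, 71.8 and 140 CPM in P-T3H2-2A libraries. Replicate 3 of P-T3H2-2A was inside the P-T3H2 range. Its log2 fold change was 0.64 (adjusted p 0.275) as labelled and 1.04 (SE 0.0880, adjusted p 0.000158) with 5 libraries. SLC35B2, the PAPS carrier of the Golgi, and SLC26A1, a sulfate carrier, both rose by a log2 fold change of 0.65 with 5 libraries. As labelled the value was 0.49 for SLC35B2 and 0.43 for SLC26A1. The genes of this list do not serve SULTs alone. SLC35B2 serves sulfation in the Golgi, not that by the cytosolic SULTs.

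Genes of UDP-glucuronate supply, use and release showed 2 higher and 1 lower among 7 tested with 5 libraries, near the 45.4% called among all genes (median log2 fold change -0.07, as labelled -0.12). UGDH, which makes UDP-glucuronate from UDP-glucose, had 323, 312 and 326 CPM in P-T3H2 libraries, against 179, 154 and 257 CPM in P-T3H2-2A libraries. These groups did not overlap, and the log2 fold change was 0.70 (SE 0.188, adjusted p 0.275) as labelled and 0.94 (SE 0.0711, adjusted p 0.000107) with 5 libraries. UXS1, which uses UDP-glucuronate up by turning it into UDP-xylose, rose by 0.38 on the log2 scale with 5 libraries (as labelled 0.09), and SLC35B1, a nucleotide carrier of the endoplasmic reticulum, fell by 0.59 (as labelled -0.41). Glutathione genes showed 5 higher and 5 lower among 14 tested with 5 libraries, against the same 45.4% (median log2 fold change -0.13, as labelled -0.08). Of these, SLC3A2, a subunit of the cystine carrier, had a log2 fold change of 0.37 with 5 libraries (as labelled 0.22), GGCT of the glutathione breakdown route -0.41 (as labelled -0.28), and GSS, the glutathione synthetase, -0.27 (as labelled -0.19). As labelled edgeR and DESeq2 called 0 in either list, with 1 and 2 genes under an unadjusted p of 0.05 in the order given.

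Of other conjugating enzymes, such as methyl- and acetyltransferases, 6 were higher and 4 lower among 16 tested with 5 libraries, against 22.6% higher and 22.8% lower of all genes, as for the next 2 lists. Values are log2 fold changes with 5 libraries unless given as labelled. TPST1, which sulfates tyrosines of secreted proteins, had 0.63 (as labelled 0.43), TST, a sulfurtransferase that detoxifies cyanide, 0.56 (as labelled 0.31), and AS3MT, which methylates arsenic, -0.66 (as labelled -0.48). Efflux carriers showed 5 higher and 3 lower among 11. The 3 of smallest p were ABCB4, the phospholipid carrier of bile (0.66, as labelled 0.39), ABCC5 (0.57, as labelled 0.33) and ABCC2, which pumps conjugates into bile (0.33, as labelled 0.25). The 3 lower ones were ABCG2 (-0.45), ABCB1 (-0.29) and ABCC4 (-0.28), export pumps for conjugates and drugs. Regulators of these genes showed 5 higher and 4 lower among 15. AHR, the receptor for dioxin that induces UGT1A genes, had 0.47 (as labelled 0.25), and PPARA, a fatty acid receptor, 0.76 (as labelled 0.47). As labelled edgeR and DESeq2 called 0 in each of these lists, with 2 other enzymes, 1 carrier and 3 regulators under an unadjusted p of 0.05. HNF4A, the gene of the factor that P-T3H2 is said to stabilise, had 74.5, 80.3 and 75.5 CPM in P-T3H2 libraries, against 123, 123 and 76.5 CPM in P-T3H2-2A libraries. Its log2 fold change was -0.49 (SE 0.190, adjusted p 0.275) as labelled and -0.69 (SE 0.0558, adjusted p 0.000137) with 5 libraries, and replicate 3 of P-T3H2-2A had the P-T3H2 level. These are RNA levels, and the protein was not measured here.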

How the data were processed

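Per the file headers, the authors deposited a whole-number count and an FPKM value per gene and library. HISAT2 2.0.4, StringTie 1.3.3b and edgeR (no version) are named, with no role, in the submitters' processing notes. Those notes name a mouse build, whereas the table lists human genes. Of 50868 gene IDs, 50111 are in GENCODE 29 and 47449 have identical GRCh38 coordinates, as have 55 of the 63 conjugation genes. Other coordinates are the deposited ones. The labels name 2 library kits without tying either to a library. Deposited FPKM equals the count over the library total and 1 length per gene, within 0.001, for 13364 genes of at least 20 counts.

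Counts were tested per gene ID with edgeR 4.0.16 in R 4.3.3: TMM, filterByExpr (minimum count 10, total 15), the quasi-likelihood test (robust) with no term but group, and p-values adjusted over all genes (Benjamini-Hochberg, 0.05). SE is the size of the log2 fold change over the square root of F. CPM is scaled by total and TMM factor. Total counts of 17434442 to 21374732 set the counting error. Every pair of libraries differed beyond counting noise, with chi-square per gene of 11.6 or more. Alternatives were DESeq2 1.42.0, limma 3.58.1 (voom, and log2(FPKM + 1) or log2(FPKM + 0.1) where 3 libraries reach 1 FPKM), other scalings and filters, a replicate block, and leaving out each library.

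The genes and lists were chosen with earlier results of these data known. Full values are given for genes of at least 5 CPM, and for genes of at least 1 CPM called with 6 or 5 libraries. Up to 3 uncalled genes of 1 to 5 CPM per family, up to 3 genes of smallest p per list, and HNF4A are also named. GSTT2, GSTT2B, UGT2B28, UGT2A2, LYZ, CD68, PTPRC, ABCG2, ABCB1 and ABCC4 were named after their values were seen. Promoters are from RefSeq (GRCh38.p14), and exon sequences from GENCODE transcripts.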

Additional observations from a re-analysis of the deposited data

How the results depend on the processing

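The count of genes past the threshold (1 as labelled) was 4 with no low-count filter, 137 in DESeq2, 3 in limma-voom, 2 on log2(FPKM + 1), and 0 with the replicate number as a block, where 0 conjugation genes were called. Same-number correlations of deviations were -0.03, 0.15 and 0.10, against -0.17 to 0.11 between unlike numbers. The libraries numbered 2 and 3 correlated best with their own number, and those numbered 1 did not. This does not settle whether the numbers pair the samples. Leaving out 1 library gave 0 to 7390 genes, 0 to 19 conjugation genes, and in the lists 0 to 3 (UDP-glucuronate), 0 to 10 (glutathione), 0 to 7 (PAPS), 0 to 10 (other conjugating), 0 to 8 (efflux) and 0 to 9 (regulators). The highest count in each case came without P-T3H2-2A replicate 3; without any other library 0 to 4 genes were called. DESeq2 called 1 conjugation gene with 6 libraries. Without that replicate, DESeq2 called 6919 genes, 17 conjugation genes and 3, 7, 8, 9, 7 and 9 list genes in the same order. DESeq2 size factors then gave 7404, 19 and 4, 10, 7, 10, 8 and 9, and library totals 7381, 19 and 3, 10, 7, 10, 8 and 9. With it as the sole control, 62 genes were called. Without it the log2 fold change of GSTT2 plus GSTT2B was 1.53 and of GSTA1 plus GSTA2 was -1.40.

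The 25 genes that follow are those given full values by the rule on level and calls. GSTT2B, called higher by DESeq2 with 6 libraries (adjusted p 0.0492), is not among them. For these 25 genes, 376 of 463 values under alternatives kept their direction and side, 64 passed the threshold (each without P-T3H2-2A replicate 3) and 23 reversed. Against that replicate as the sole control, the log2 fold change was 0.34 for GSTA1, 0.85 for GSTA2, 0.018 for GSTA4, 0.028 for GSTP1, 0.19 for GSTM2, -0.027 for GSTM3, 0.13 for MGST1, -0.00065 for MGST2, 0.020 for MGST3, 0.029 for SULT1C2, -0.22 for SULT1C4, 0.33 for SULT1E1, 0.32 for UGT2B10 and -0.28 for UGT2B4. GSTK1, at 0.009 as labelled, was -0.0042 with no filter, and between -0.039 and 0.051 when 1 library was left out (-0.017 without P-T3H2 replicate 3). Without P-T3H2-2A replicate 3 it was -0.039 in edgeR, -0.040 in DESeq2, -0.041 with size factors and -0.030 with totals. Leaving out 1 library gave GSTO1 -0.11 to 0.032 (highest without P-T3H2-2A replicate 1) and GSTM2 -0.19 to 0.085 (highest without P-T3H2 replicate 1, and 0.03 without P-T3H2-2A replicate 2). The cause was not tested.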
